A study of Mus musculus with 6 samples.

Results

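The iron and heme handling genes were followed in RNA-seq of activated CD8T cells that had been cocultured with control or DB2313-treated macrophages. They were 10 genes chosen by symbol (Hmox1, Blvrb, Fth1, Ftl1, Slc40a1, Slc11a1, Slc11a2, Tfrc, Spic and Steap3) among the 54532 genes of the deposited count table, and each symbol matched a single row. All 10 passed the filter on low counts and were among the 14883 genes tested.

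Spleens of mice gave the CD8T cells, which were stimulated on beads carrying anti-CD3/CD28 and then kept for 24 hr in coculture with peritoneal macrophages elicited by thioglycolate, all of which had received IFN-γ (10 ng/mL, 12 hr) beforehand. Control macrophages received no DB2313. The macrophages of the other group were treated with DB2313 (14 nM in the methods), which inhibits the transcription factor Spi1 (PU.1). Each group had 3 samples. The sources used here do not say whether these came from separate cultures or animals, so p-values measure only the spread between these samples, which may be technical. GEO's labels name the cells as primary T cells and the cocultured cells as DC, where the paper names macrophages. The age and sex of the mice that gave the cells were not given in the sources used here.

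Cells handle iron along a short route. Transferrin-bound iron enters by the transferrin receptor Tfrc, is reduced in the endosome by Steap3 and leaves the endosome by Slc11a2, and what is not used is stored in shells of the ferritin chains Fth1 and Ftl1 or exported by ferroportin, Slc40a1. Macrophages also take in iron as the heme of ingested red cells, which Hmox1 opens to release iron, carbon monoxide and biliverdin. The biliverdin made in this way is reduced mainly by Blvra, and Blvrb reduces other biliverdin isomers and flavins. Spic, an Ets factor related to Spi1, is known for its role in iron-recycling macrophages of the spleen, and Slc11a1 is a metal pump of the phagosome membrane of macrophages and neutrophils. Activated T cells rely mostly on Tfrc.

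A part of these genes is controlled after transcription by iron-responsive elements, short RNA hairpins in the untranslated regions (UTRs) to which the proteins encoded by Aco1 and Ireb2 bind when iron is scarce. In a 5′ UTR the bound hairpin blocks translation, and in the 3′ UTR of Tfrc it protects the mRNA, so that the mRNA level of Tfrc follows iron supply more directly than those of the ferritins do. The protein-coding transcripts of GENCODE mouse release 21 (GRCm38) were searched for a C, 5 bases, the loop CAGTG followed by A, C or T, and 5 bases that pair with the first 5 at no fewer than 4 positions, G-T pairs included. The pattern was found in 5 of the 10 genes, and in 8.06% of the 21877 gene symbols searched, so that a match by itself is a description and no sign of a working element. The 30 bases around each match are shown because they group the members by where a hairpin sits, written 5′ to 3′ on the strand of the gene with the 6 bases of the loop in capitals. The first 3 lie in exon 1, in the 5′ UTR, the next in the 3′ UTR of Slc11a2, and the last 4 in the 3′ UTR of Tfrc. Not all protein-coding transcripts of these genes held a match. It was found in 4 of 5 of Fth1, 1 of 2 of Ftl1, 1 of 4 of Slc40a1, 1 of 6 of Slc11a2 and 1 of 3 of Tfrc.
Fth1, chr19:9982732-9982761, plus strand: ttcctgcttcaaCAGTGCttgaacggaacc
Ftl1, chr7:45459778-45459807, minus strand: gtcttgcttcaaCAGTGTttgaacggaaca
Slc40a1, chr1:45925464-45925493, minus strand: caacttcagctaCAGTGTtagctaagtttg
Slc11a2, chr15:100395152-100395181, minus strand: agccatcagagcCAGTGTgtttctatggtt
Tfrc, chr16:32631219-32631248, plus strand: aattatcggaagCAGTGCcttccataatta
Tfrc, chr16:32631598-32631627, plus strand: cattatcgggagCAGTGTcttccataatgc
Tfrc, chr16:32631663-32631692, plus strand: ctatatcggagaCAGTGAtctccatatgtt
Tfrc, chr16:32631710-32631739, plus strand: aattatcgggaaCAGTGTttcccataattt

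Between 16611975 and 18596217 reads were counted on genes in each library. Within a group, the chi-square per gene between libraries was 2.48 to 3.81, above sampling noise, so none was counted as a copy of another. RNA of other cells was counted as well. The 20 T cell markers, Cd8a and Cd8b1 among them, took 0.377% to 0.383% of the counts in the control libraries and 0.607% to 0.613% in the DB2313 libraries, and all 20 rose. The 20 macrophage markers took 1.08% to 1.11% and 0.405% to 0.415%. Of these, 16 fell, 3 rose and Cd5l was below the filter, with a median log2 fold change of -0.88. The 10 neutrophil markers took 0.193% to 0.194% and 0.0724% to 0.0743%, and 9 of them fell and 1 rose. Of the 10 dendritic cell markers, which took 0.370% to 0.375% and 0.269% to 0.272%, 7 fell and 1 rose, and of the 8 B cell markers, at 0.00475% to 0.00509% and 0.00732% to 0.0076%, 4 rose. In such bulk samples, fewer cells of a type and less RNA per cell cannot be told apart, and the part of these cells in the results on iron genes was not tested.

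Of the 10 iron and heme handling genes, 7 were lower, 1 was higher and 2 were not called (45.4% of all genes tested were called) in the DB2313 group, at an adjusted p below 0.05 from edgeR's quasi-likelihood test after TMM scaling. All 7 falls turned into higher values when the libraries were scaled to their macrophage marker counts instead, since those counts fell by more than the members did. Those markers include Spi1, C1qa, C1qb and C1qc, and the paper reports that DB2313 reversed the induction of C1q genes by GM-CSF. Their counts may thus not follow the amount of macrophage RNA alone. Among all genes tested, 24.6% were called lower and 20.8% higher. The median log2 fold change of the 10 genes was -0.44, against 0.019 over all genes tested. None changed by more than 1 on the log2 scale, a size reached with a call by 6.67% of the genes tested, 5.3% in the lower and 1.37% in the higher direction. All 3 DB2313 libraries lay below all 3 control libraries for 7 of the 10 genes and above them for 2, against 27.5% and 25.6% of all genes tested. In the same libraries Spi1, whose product DB2313 inhibits, went from 286 ± 6.75 to 156 ± 6.2 CPM (SD, n = 3 each), a log2 fold change of -0.88 (standard error 0.04). Spi1 is also among the 20 macrophage markers. It is the middle gene of those tested, so their median log2 fold change of -0.88 is its own value. Whether its fall differs from that of macrophage RNA as a whole was not tested.

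**Figure D1:**
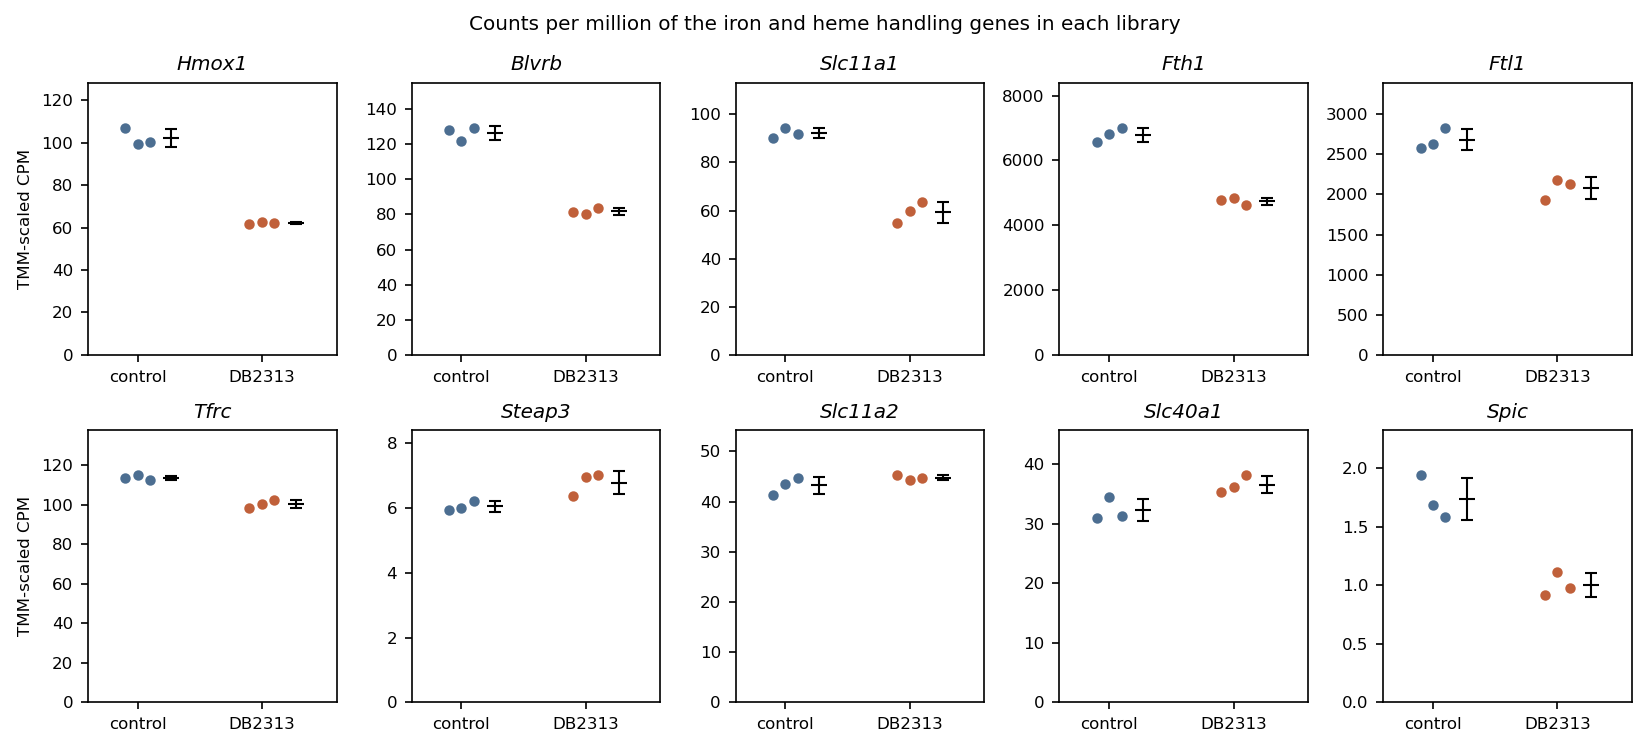
TMM-scaled CPM (vertical axes, from 0) of each iron and heme handling gene in the 3 control and 3 DB2313 libraries, with the group mean and SD beside the points. The DB2313 libraries lie below the control libraries for Hmox1, Blvrb, Slc11a1, Fth1, Ftl1, Tfrc and Spic, above them for Steap3 and Slc40a1, and among them for Slc11a2.

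Hmox1 and Blvrb both fell. Hmox1 (heme oxygenase 1, ENSMUSG00000005413, plus strand of chromosome 8 of GRCm38 from 75093621 to 75100589) was at 107, 99.3 and 100.5 CPM in the control libraries and at 61.8, 62.8 and 62.1 CPM in the DB2313 libraries. CPM are read counts scaled to a common library size (TMM), and no DB2313 library came near the control libraries. Hmox1 fell by 0.72 on the log2 scale (standard error 0.05, adjusted p = 7.11e-12 from edgeR), a change of -39.2% in level. Blvrb (biliverdin reductase B, ENSMUSG00000040466, plus strand of chromosome 7 from 27447978 to 27466144) was at 128, 122 and 129 CPM in the control libraries and at 81.6, 80.1 and 83.8 CPM in the DB2313 libraries. Here too the groups stood well apart, and the spread within each was small. Blvrb thus fell by 0.63 on the log2 scale (standard error 0.04, adjusted p = 1.15e-11 from edgeR). The ratio of Hmox1 to Blvrb within a library, which no scaling can change, went from 0.809 ± 0.0294 to 0.761 ± 0.0218 (SD, n = 3 each). The groups overlapped in this ratio (two-sided exact permutation test, p = 0.2, where 0.1 is the smallest that 3 against 3 allow).

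The heme route was also followed in a list of 14 other genes of heme transport, binding and breakdown, of which 12 were tested, 6 fell and none rose, or 50% and 0% against 24.6% and 20.8% of all genes tested. Their median log2 fold change was -0.25, against 0.019 over all genes tested. The one with the highest CPM was Slc48a1, which carries heme out of the phagolysosome, and it went from 173 ± 3.68 to 122 ± 4.09 CPM (SD, n = 3 each), a log2 fold change of -0.50 (standard error 0.04). The fall was larger in Hp, which encodes the hemoglobin-binding haptoglobin, and in Cd163, the receptor for the haptoglobin-hemoglobin complex. Hp went from 39.0 ± 3.47 to 10.1 ± 1.49 CPM, which was -1.95 on the log2 scale (standard error 0.10, adjusted p = 7.50e-14 from edgeR). Cd163 was scarce, at 1.58 ± 0.185 and 0.581 ± 0.223 CPM, with a log2 fold change of -1.45 (standard error 0.38, adjusted p = 0.00322 from edgeR). Hmox2, the constitutive heme oxygenase, fell by 0.22 on the log2 scale, and Blvra, the other biliverdin reductase, was at -0.034 (standard error 0.07) and was not called. Bach1, the heme-sensing repressor of Hmox1, fell by 0.34 on the log2 scale. Hp is also made by neutrophils, and 9 of the 10 neutrophil markers fell in these libraries, which was not tested as a source of its fall.

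Both ferritin chains fell, and they were by far the most abundant of the 10 genes. Fth1 (ferritin heavy chain, ENSMUSG00000024661, plus strand of chromosome 19 from 9982703 to 9985092) had 118628, 117077 and 114638 counts in the control libraries and 88241, 82466 and 84920 in the DB2313 libraries. These are 6575, 6812 and 7003 CPM against 4777, 4833 and 4615 CPM, with every DB2313 library well below every control library. Its share of the counts went from 0.657% ± 0.0183 to 0.489% ± 0.00921 (SD, n = 3 each). Fth1 changed on the log2 scale by -0.52 (standard error 0.03, adjusted p = 3.43e-13 from edgeR). Ftl1 (ferritin light chain, ENSMUSG00000050708, minus strand of chromosome 7 from 45457944 to 45459884) was at 2584, 2632 and 2830 CPM in the control libraries and at 1930, 2186 and 2134 CPM in the DB2313 libraries. The groups did not overlap, but its spread within the groups was wider than that of Fth1 relative to its level. The log2 fold change of Ftl1 came to -0.36 (standard error 0.04, adjusted p = 5.07e-08 from edgeR).

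The heavy chain carries the ferroxidase activity of the ferritin shell and the light chain favours mineral formation, and the balance between them differs between tissues. The ratio of Fth1 to Ftl1 counts was 2.54, 2.59 and 2.48 in the control libraries and 2.48, 2.21 and 2.16 in the DB2313 libraries. DB2313 replicate 1 reached the control range, and the difference was not past a threshold (two-sided exact permutation test, p = 0.2). Ferritin genes have processed copies elsewhere in the genome, so the division of reads among them is uncertain. Ftl1-ps1, a copy on chromosome 13, had 690 to 1237 counts in a library and a log2 fold change of -0.79 (standard error 0.06). Ftl2-ps had at most 22 counts in a library, and Ftl1-ps2 had none, where a count of 0 allows up to 3. Ncoa4, which delivers ferritin to the lysosome for release of its iron, went from 112 ± 4.92 to 89.5 ± 4.4 CPM (SD, n = 3 each), a log2 fold change of -0.32 (standard error 0.05).

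**Figure D2:**
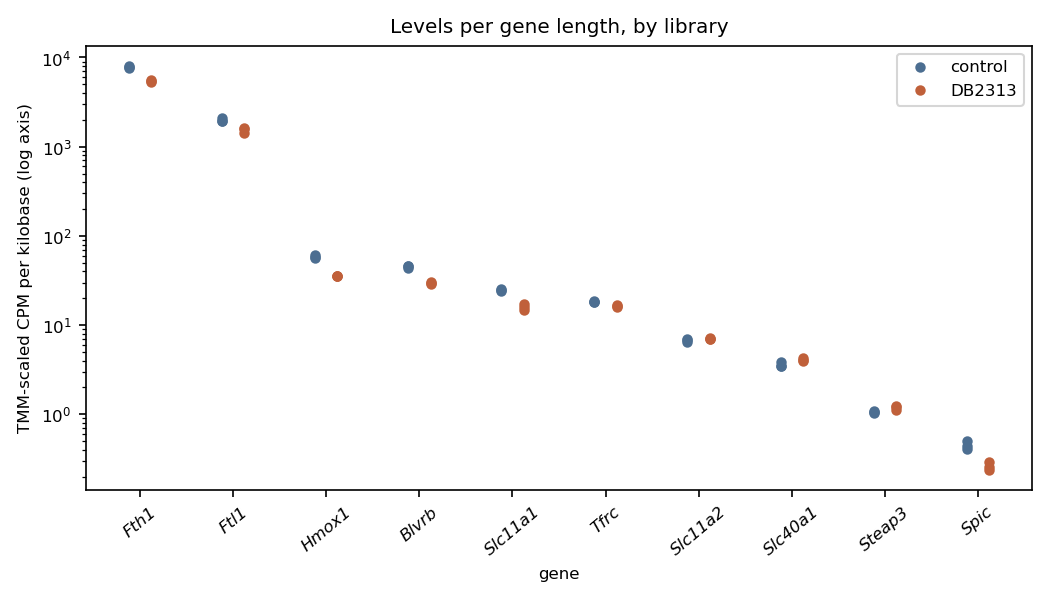
Level of each gene per kilobase of its length (TMM-scaled CPM per kilobase, log axis) in the 3 control and 3 DB2313 libraries, with genes ordered by their mean in the control group. Fth1 and Ftl1 lie far above the other 8 genes, and Spic is the lowest in both groups.

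Levels were compared between genes per kilobase of the gene length given in the deposited table. In the control group the order was Fth1 at 7848 ± 248, Ftl1 at 2001 ± 97.3, Hmox1 at 58.4 ± 2.35, Blvrb at 45.5 ± 1.39 and Slc11a1 at 24.9 ± 0.555 CPM per kilobase (SD, n = 3 each). Tfrc followed at 18.4 ± 0.194, Slc11a2 at 6.80 ± 0.27, Slc40a1 at 3.59 ± 0.208, Steap3 at 1.06 ± 0.0278 and Spic at 0.453 ± 0.0472 CPM per kilobase. No neighbours in this order overlapped in the control libraries. In the DB2313 group, Tfrc at 16.3 ± 0.33 and Slc11a1 at 16.01 ± 1.18 CPM per kilobase had changed places and overlapped, and the other 8 genes held their ranks. Ftl1 stood 34.3 times above Hmox1 in the control group and 43.7 times in the DB2313 group, on the same scale.

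Among the metal carriers, Slc11a1 fell and its relative Slc11a2 was not called. Slc11a1 (ENSMUSG00000026177, plus strand of chromosome 1 from 74375195 to 74386062) was at 90.3, 94.3 and 91.6 CPM in the control libraries and at 54.7, 59.8 and 63.4 CPM in the DB2313 libraries. All DB2313 libraries were lower, and they varied more among themselves than the control libraries did. Slc11a1 fell by 0.63 on the log2 scale (standard error 0.05, adjusted p = 7.04e-10 from edgeR). Slc11a2, the carrier that moves iron from the endosome into the cytosol (ENSMUSG00000023030, minus strand of chromosome 15 from 100387898 to 100425072), ranged from 41.3 to 44.7 CPM in the control and from 44.3 to 45.2 CPM in the DB2313 libraries. The groups overlapped, and its log2 fold change was 0.051 with a 95% interval from -0.069 to 0.17 (adjusted p = 0.527 from edgeR). The ratio of Slc11a1 to Slc11a2 within a library went from 2.13 ± 0.0727 to 1.33 ± 0.105 (SD, n = 3 each), with every DB2313 library below every control library. The two-sided exact permutation test gave p = 0.1, the smallest that this design allows, and 0.2 after adjustment over the 4 ratios examined.

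The core GAGGAA, which Spi1 can bind, was looked for on both strands from 250 bases before to 50 after the start of each gene in RefSeq promoters of GRCm38.p6, where 7 of the 10 genes had an entry. It was found in Slc11a1 and Steap3, and in 28.3% of all 32851 promoters, so these matches are a description only. Steap3, which was not called, held a match before each of 2 start sites. TGACNNNGC, a core of the antioxidant response element, was found on either strand in 0 of the 7 genes and in 12.4% of all promoters. Hmox1, Slc40a1 and Slc11a2 had no entry and were not searched for either core. Bases outside this window were not searched in any gene, so the element may lie elsewhere. The match of Slc11a1 was picked for display after its fall was seen, and it begins 152 bases before the start, in capitals in the following 60 bases of the plus strand at chr1:74375024-74375083.
Slc11a1: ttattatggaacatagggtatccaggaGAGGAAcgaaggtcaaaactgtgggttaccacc

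On the route of transferrin iron, Tfrc fell slightly and Steap3 was not called. Tfrc (transferrin receptor, ENSMUSG00000022797, plus strand of chromosome 16 from 32608920 to 32632794) was at 114, 115 and 113 CPM in the control libraries and at 98.5, 100.5 and 103 CPM in the DB2313 libraries. The groups were close, but they did not overlap. Tfrc fell by 0.18 on the log2 scale (standard error 0.04, adjusted p = 0.000819 from edgeR). With scaling to library size in place of TMM it was -0.082, which was not called (adjusted p = 0.0935 from edgeR, the highest over its 16 alternatives, of which the lowest, 2.35e-18, was with macrophage marker scaling, where Tfrc was higher). Steap3, the reductase of the endosome (ENSMUSG00000026389, minus strand of chromosome 1 from 120190757 to 120272705), ranged from 5.93 to 6.23 CPM in the control and from 6.39 to 7.01 CPM in the DB2313 libraries. Its libraries did not overlap, but with 102 to 129 counts in a library its log2 fold change of 0.17 had a 95% interval from -0.12 to 0.45 and was not called (adjusted p = 0.369 from edgeR).

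In the list of 11 other genes of iron uptake and reduction, 7 were tested, 2 fell and 1 rose, around a median of -0.12 on the log2 scale. These shares, 28.6% and 14.3%, lay near the 24.6% lower and 20.8% higher among all genes tested. Lcn2, which binds bacterial siderophores and is a granule protein of neutrophils, went from 236 ± 7.75 to 50.5 ± 3.07 CPM (SD over 3 libraries). The log2 fold change of Lcn2, -2.22 (standard error 0.05, adjusted p = 3.14e-21 from edgeR), was larger than that of any of the 10 members. The neutrophil markers fell in the same libraries with a median of -1.62, with S100a9, the highest in CPM, at 514 ± 4.98 and 156 ± 7.8 CPM, and their part in the fall of Lcn2 was not tested. Trf, which encodes transferrin itself, went from 6.77 ± 0.309 to 2.095 ± 0.457 CPM, a log2 fold change of -1.69 (standard error 0.20, adjusted p = 1.45e-07 from edgeR). Slc22a17, a receptor for the Lcn2 protein, was scarce at 1.73 ± 0.0426 and 3.35 ± 0.925 CPM and rose by 0.95 on the log2 scale (standard error 0.26).

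**Figure D3:**
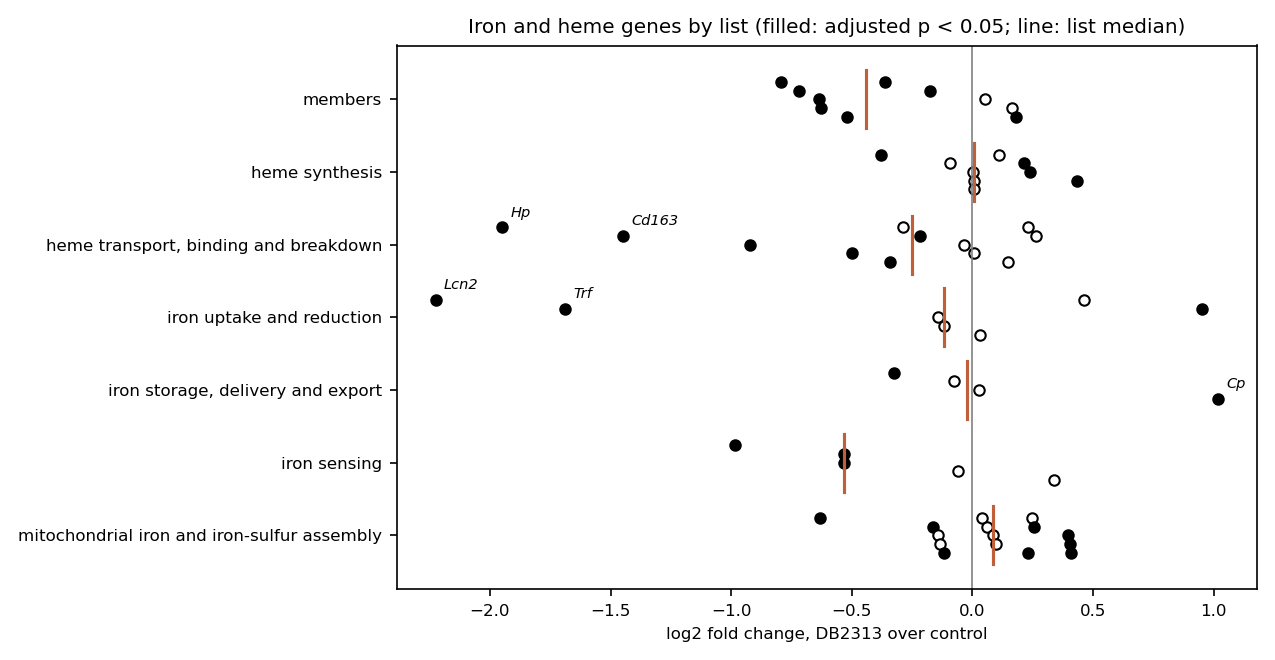
Fitted log2 fold change (horizontal axis, DB2313 over control, TMM scaling) of each tested gene of the 10 members and of 6 lists of other iron and heme genes, filled where the adjusted p was below 0.05, with the list median as a line. The members have a median of -0.44 and the iron sensing list one of -0.53, whereas heme synthesis at 0.0072 and the mitochondrial list at 0.086 lie near 0. With scaling to macrophage marker counts the whole plot moves to higher values.

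Slc40a1 was the only one of the 10 genes called higher, and the call was not stable. This exporter of iron (ferroportin, ENSMUSG00000025993, minus strand of chromosome 1 from 45908068 to 45926523) was at 31.0, 34.5 and 31.4 CPM in the control libraries and at 35.4, 36.2 and 38.2 CPM in the DB2313 libraries. Control replicate 2 came within 1 CPM of DB2313 replicate 1, without overlap between the groups. The log2 fold change of Slc40a1 was 0.18 with a 95% interval from 0.044 to 0.32 (adjusted p = 0.0383 from edgeR), and DESeq2 gave an adjusted p of 0.112, where the 16 alternatives ranged from 4.47e-16 (macrophage marker scaling) to 0.138, and T cell marker scaling turned the value to -0.41. The call was lost without control replicate 1 (adjusted p = 0.138 from edgeR), control replicate 3 (0.107), DB2313 replicate 2 (0.0598) or DB2313 replicate 3 (0.119). The ratio of Slc40a1 to Tfrc, of export to import mRNA, was 0.273, 0.300 and 0.279 in the control libraries and 0.359, 0.360 and 0.372 in the DB2313 libraries. This ratio was higher in 3 of 3 DB2313 libraries, by 0.36 on the log2 scale (two-sided exact permutation test, p = 0.1, and 0.2 after adjustment over the 4 ratios). Of 8 other genes of iron storage, delivery and export, 4 were tested, with a median log2 fold change of -0.024. Pcbp1, an iron chaperone with the highest CPM of them, was at 318 ± 2.62 and 302 ± 8.5 CPM and was not called (adjusted p = 0.075 from edgeR). Cp, the ferroxidase ceruloplasmin that works with ferroportin, rose from 2.11 ± 0.923 to 4.28 ± 0.117 CPM, a log2 fold change of 1.02 (standard error 0.26, adjusted p = 0.00255 from edgeR).

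**Figure D4:**
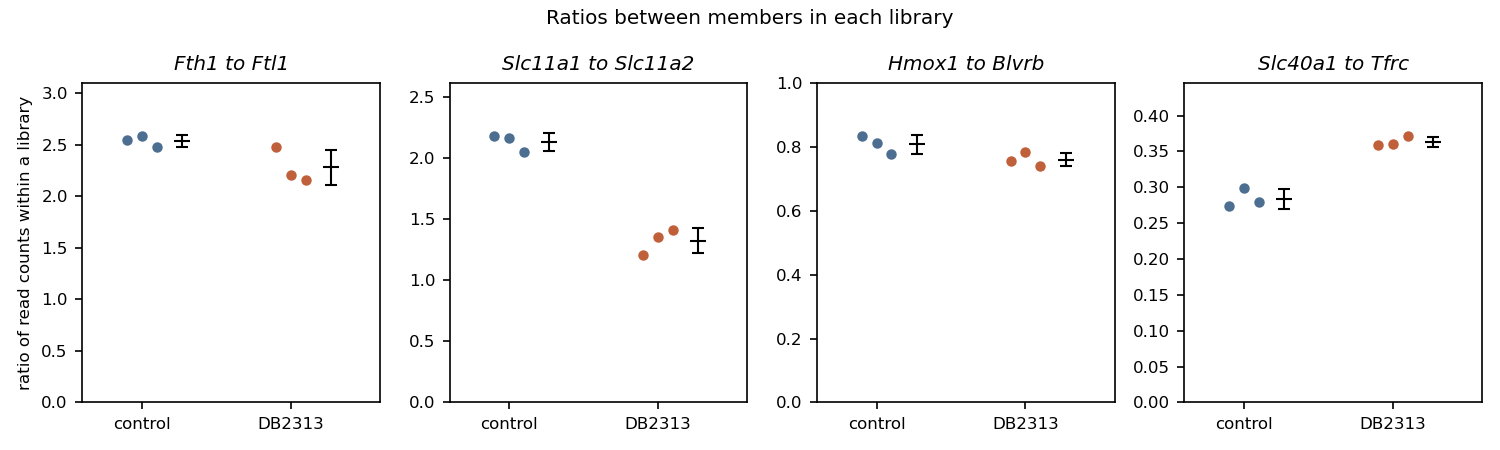
Ratio of the read counts of a pair of genes within each library (vertical axes, from 0) for the 3 control and 3 DB2313 libraries, with the group mean and SD beside the points. The DB2313 libraries lie below the control libraries for Slc11a1 to Slc11a2 and above them for Slc40a1 to Tfrc, and the groups overlap for Fth1 to Ftl1 and Hmox1 to Blvrb.

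Spic was barely detected. This transcription factor (ENSMUSG00000004359, minus strand of chromosome 10 from 88674772 to 88685015) had 35, 29 and 26 counts in the control libraries and 17, 19 and 18 in the DB2313 libraries. These were 1.94, 1.69 and 1.59 CPM against 0.920, 1.11 and 0.978 CPM, with no overlap. Spic had a log2 fold change of -0.79 with a 95% interval from -1.42 to -0.16 (adjusted p = 0.0489 from edgeR). Its adjusted p was 0.15 with DESeq2 and ranged from 0.000473 to 0.71 over its 16 alternatives, the latter with macrophage marker scaling without Lyz2, where the value was 0.13. The call was lost when any 1 of the 6 libraries was left out, with log2 fold changes between -0.87 and -0.70. With so few counts, the depth does not allow a firmer statement on Spic.

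Of 8 genes of iron sensing, 5 were tested, 3 fell and none rose, where 24.6% of all genes tested were called lower and 20.8% higher. The median of these 5 was -0.53 on the log2 scale, against 0.019 over all genes tested. Ireb2 and Aco1 encode the proteins that bind the hairpins shown above. Ireb2 was at 75.4 ± 6.47 and 72.4 ± 3.85 CPM (SD, n = 3 each), with a log2 fold change of -0.06 and a 95% interval from -0.17 to 0.055, which was not called (adjusted p = 0.433 from edgeR). Aco1 went from 65.4 ± 2.61 to 45.2 ± 1.31 CPM, a log2 fold change of -0.53 (standard error 0.06). Fbxl5, which marks the Ireb2 protein for degradation when iron is plentiful, fell by 0.53 on the log2 scale as well (standard error 0.05), and Hfe, a membrane partner of the transferrin receptor, fell by 0.98 (standard error 0.09). The 5 members with a hairpin had log2 fold changes from -0.52 in Fth1 to 0.18 in Slc40a1, and the 5 without a match ranged from -0.79 in Spic to 0.17 in Steap3.

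Of 10 genes of heme synthesis, 9 were tested, 1 fell and 3 rose, around a median of 0.0072 on the log2 scale. These are 11.1% and 33.3%, against 24.6% lower and 20.8% higher among all genes tested. Alas1, the rate-limiting enzyme of heme synthesis outside red cell precursors, went from 130 ± 6.42 to 100.2 ± 2.62 CPM (SD, n = 3 each), a log2 fold change of -0.38 (standard error 0.04). Among those that rose were the later enzymes Alad, at 0.43 (standard error 0.11), and Urod, at 0.21 (standard error 0.06). Alas2, the form of the first enzyme in red cell precursors, had at most 6 counts in a library. Of 13 erythroid markers, the 12 in the table took 0.000903% to 0.00107% of the counts in the control libraries and 0.00167% to 0.00175% in the DB2313 libraries, of 8 tested 3 rose, and Hba-a2 and Slc4a1 were at 0 in all libraries. Hemgn, the highest in CPM over all 6 libraries, was at 2.38 ± 0.413 and 4.44 ± 0.517 CPM.

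Over the 6 lists together, 52 of the 66 genes found in the table were tested. Of these, 30.8% fell and 19.2% rose, against 24.6% and 20.8% of all genes tested.

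The direction of the changes rests on what each library is scaled to, because markers of T cells and of macrophages moved in opposite directions. With scaling to the 20 T cell markers, whose gene with the highest CPM was Tcf7 at 558 ± 18.5 and 820 ± 16.2 CPM (SD, n = 3 each), the median of all genes tested moved to -0.57 and all 10 iron and heme handling genes were lower. The same scaling called 11503 of all 14883 genes tested lower. With scaling to the macrophage markers the median of all genes moved to 1.53, and all 10 members and 14026 of all genes tested were higher. Most of the macrophage marker counts came from Lyz2, at 7702 ± 133 and 2084 ± 36.6 CPM. Without Lyz2, an alternative added after seeing the data, 9 of the 10 members and 12721 of all genes tested were higher. Library size scaling moved the median of all genes by less, to 0.11, and left Hmox1, Blvrb, Slc11a1, Fth1 and Ftl1 lower at the same threshold.

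**Figure D5:**
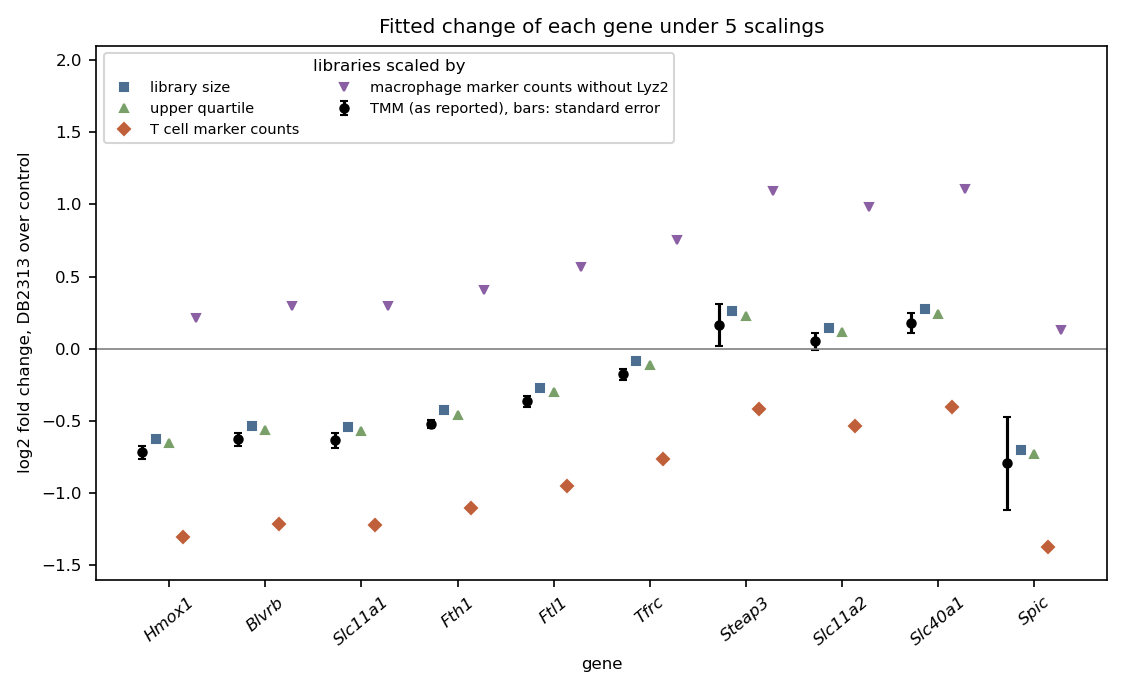
Fitted log2 fold change (vertical axis, DB2313 over control) of each iron and heme handling gene with the libraries scaled in 5 ways, with bars for the standard error under TMM. Hmox1 lies at -0.72 with TMM, at -1.30 with T cell marker counts and at 0.21 with macrophage marker counts without Lyz2. The order of the genes is close to the same under each because a scaling moves all genes by nearly the same amount.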

How the data were processed

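Total RNA of 3 control and 3 DB2313 samples was sequenced, and the authors deposited raw read counts per gene, with gene lengths. The submitters' processing notes name CASAVA 1.8, HISAT2 2.0.5 and featureCounts 1.5.0-p3, whereas the paper's methods name LifeScope, and strandedness is not given in the sources used here. Of 54495 genes shared with GENCODE mouse release 21, 98.3% had its GRCm38 coordinates, 9 of the 10 members among them (Fth1 differed).

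Samples were grouped by DB2313 treatment. Differences were computed on the counts as deposited by the quasi-likelihood test of edgeR 4.0.16 (R 4.3.3) after filterByExpr and TMM scaling, with Benjamini-Hochberg adjustment over the 14883 genes tested and a threshold of 0.05. Standard errors came from the fitted change and its F statistic, and 95% intervals span 1.96 standard errors. Counts were simulated from the mean levels of 14883 genes of these data, of which 14689 passed the filter again. There edgeR called 90 of 100 genes changed by 0.75 on the log2 scale and 96 of 100 changed by 1.5. A changed gene that failed the filter counted as not called. Only the genes named as changed were altered, as many up as down, with the same dispersion for all genes. In the data 45.4% of the genes tested were called, so the simulation says nothing on how TMM handles such a broad shift.

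The members and lists were chosen with earlier results of these data known. Named from the lists, marker lists included, was the gene with the highest CPM of each. Of the 6 iron and heme lists, genes past the threshold with an absolute log2 change above 1 and at least 1 CPM were added. Ferritin pseudogenes and Spi1 were named too. Other list genes (Hmox2, Blvra, Bach1, Ncoa4, Slc22a17, Aco1, Fbxl5, Hfe, Alad, Urod, Alas2, Cd5l, Hba-a2, Slc4a1, Slc25a37, Slc25a28, Isca1 and Fdx1) were named after their values were seen, and some list genes are not reported here. Alternatives were DESeq2 1.42.0, other scalings and filters, a replicate block, leaving out each sample, and protein-coding genes only. DESeq2 was run on all 27310 genes with a count and not on the 14883 of the main fit, so its calls differ in gene set as well as in tool. A count of 0 allows up to 3 counts, at most 1.81e-05% of a library. This limit covers counting error alone, as PCR copies of a molecule could not be told from separate molecules.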

Additional observations from a re-analysis of the deposited data

How the results depend on the processing

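Of 150 values of single members under the other settings planned beforehand, 119 had the direction and call reported, 19 lost the call, 2 gained one and 10 changed sign. With the added scaling without Lyz2 there were 160 values. Of these, 120 had the direction and call reported, 19 lost the call, 4 gained one and 17 changed sign. In the 6 fits that each left out a library, 50 of 60 had the direction and call reported and 10 lost the call, all of them Spic or Slc40a1. Over these fits the members called higher numbered 0 to 1, those called lower 6 in each, the list genes called higher 8 to 10 and those called lower 14 to 16. Among all genes tested, 15217 to 15270 in these fits, 2558 to 2894 were called higher and 3279 to 3516 lower. The log2 difference in ratio ranged from -0.21 to -0.12 for Fth1 to Ftl1, from -0.74 to -0.62 for Slc11a1 to Slc11a2, from -0.12 to -0.064 for Hmox1 to Blvrb and from 0.33 to 0.40 for Slc40a1 to Tfrc.

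No member was called higher with DESeq2, without a filter, with the replicate block, with T cell marker scaling or with an absolute log2 fold change above 1, a limit at which the number called lower was 0 too. In each of the first 3, Slc40a1 had kept its direction (0.18 each) and lost its call. No pairing by replicate number was visible. Deviations of same-numbered samples correlated at 0.00253, -0.0111 and -0.00507, and those of differently numbered samples at -0.023 to 0.0284. Such values cannot show whether same-numbered samples were made together, which the sources used here do not say. The replicate block moved the calls over all genes from 3096 to 2912 higher and from 3667 to 3525 lower, and the call of Spic was lost there too (-0.79).

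With T cell marker scaling, Slc40a1 was at -0.41, Slc11a2 at -0.53 and Steap3 at -0.42. Of the list genes 0 were then higher and 44 lower, against 175 and 11503 of all 14883 genes tested. With macrophage marker scaling, 10 members were higher and 0 lower, and 48 list genes were higher and 2 lower. Of all genes tested, 14026 were higher and 204 lower with this scaling. Hmox1 was then at 0.79, Blvrb at 0.88, Fth1 at 0.99, Ftl1 at 1.14, Slc11a1 at 0.87, Tfrc at 1.33 and Spic at 0.71. Without Lyz2, chosen after seeing the data, 9 members were higher and 0 lower, and 46 list genes were higher and 3 lower. Over all genes tested these numbers were 12721 and 499. Hmox1 was then at 0.21, Blvrb at 0.30, Fth1 at 0.41, Ftl1 at 0.56, Slc11a1 at 0.29, Tfrc at 0.75 and Spic at 0.13. These reversals follow from the marker counts, which fell by more than these members.

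Without its gene of highest CPM, the log2 ratio of a list's summed share was -0.83 in place of -1.41 for macrophage markers, -1.33 in place of -1.40 for neutrophil markers and -0.13 in place of -0.46 for dendritic cell markers. That gene was Ccl22 in the dendritic cell list, at 2190 ± 12.9 CPM in the control and 1188 ± 15.4 CPM in the DB2313 libraries (SD, n = 3 each). In the B cell list it was Cd79b, at 13.9 ± 0.54 and 19.2 ± 1.27 CPM.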

Other observations

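Genes of mitochondrial iron import and iron-sulfur cluster assembly were followed as a further list. All 15 were tested, 5 rose and 3 fell, with a median log2 fold change of 0.086, against 0.019 over all genes tested and shares of 20.8% called higher and 24.6% called lower. The related importers of iron into mitochondria moved in opposite directions. Slc25a37, mitoferrin 1, which is abundant in red cell precursors, went from 94.1 ± 2.11 to 60.7 ± 3.84 CPM (SD, n = 3 each), a log2 fold change of -0.63 (standard error 0.05), and Slc25a28, mitoferrin 2, went from 36.3 ± 2.61 to 43.3 ± 1.61 CPM, a log2 fold change of 0.25 (standard error 0.07). Among the assembly genes, Isca1 rose by 0.40 and Fdx1 by 0.41 on the log2 scale. Iscu, the scaffold on which clusters are built and the gene with the highest CPM of the list, fell by 0.12 on the log2 scale (adjusted p = 0.042 from edgeR), and its libraries overlapped. With T cell marker scaling, no gene of the 6 lists was higher, against 175 of all 14883 genes tested, so that these rises are relative to TMM.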
